A study of Mus musculus with 3 samples.

Results

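The genes described here are 5 chemokines (Cxcl14, Cxcl12, Cx3cl1, Ccl2 and Ccl20) and 4 cytokines of epithelial cells (Il34, Il33, Il1a and Tslp). They were taken by symbol from a fixed list of 9 names, and 9 of 9 were found among 44625 gene entries. Polyadenylated RNA was sequenced in 3 libraries of integrin alpha6-positive, Sca1-negative cells sorted from the back skin of untreated wild-type (WT) mice at postnatal day 56, when the hair follicles are in their second resting phase (telogen). All 3 libraries belong to 1 group, which leaves no pair of groups to compare here. The labels do not name the sex of the mice or an antibody to Sca1, and their treatment text speaks of duplicates. Whether the 3 libraries came from separate collections was not stated, so any p-value measures only the spread between these libraries, which may be technical.

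Chemokines are small secreted proteins that guide leukocytes by binding receptors with 7 membrane-spanning segments, and they are classed by the spacing of their first cysteines. Skin epithelium makes some of them at rest and others after injury or infection. In mouse hair follicles, Ccl20 has been described in the infundibulum, Ccl2 in the isthmus and Ccl8 in the bulge. Ccl20 and Ccl2 have been described as drawing in precursors of Langerhans cells, the antigen-presenting cells of the epidermis, and Ccl8 as restraining their entry. The 4 cytokines also act on leukocytes: interleukin 34 maintains Langerhans cells, interleukin 33 and interleukin 1 alpha are released by damaged cells as alarm signals, and thymic stromal lymphopoietin (Tslp) acts on dendritic and innate lymphoid cells.

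Levels are given as TPM, the number of transcripts on a scale with a fixed total per library, in which counts are divided by gene length so that genes can be compared. Library totals ranged from 29283936 to 39198620 counts. Itga6, which encodes integrin alpha6, had 112 ± 9.12 TPM (SD, n = 3), and Ly6a, which encodes Sca1, had 7.91 ± 4.31 TPM. Cd34 and Krt15, genes of hair follicle stem cells, had 535 ± 56.8 and 23208 ± 3176 TPM. Markers of leukocytes were near 0 or low. Ptprc, the pan-leukocyte gene, had 0, 0 and 5 counts, and Lyz2 had 0 counts in all 3 libraries. The 12 myeloid and antigen-presenting markers summed to 41.8, 43.7 and 36.0 TPM, most of it from Cd68 and Cd74, and 4 of 12 had a mean of at least 1 TPM. The 6 T cell markers summed to 0.0851, 1.02 and 0.0366 TPM, with Cd3d and Cd2 at 0. The 7 fibroblast markers summed to 17.99, 45.3 and 40.4 TPM, nearly all from Col1a1 (7.36, 21.6 and 23.3 TPM) and Col1a2 (10.03, 23.2 and 16.7 TPM), which were lowest in replicate 1, while Lum and Dpt were at 0.

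Promoter sequences are shown for 4 of the genes, because the genes with the highest and the lowest levels differed in the number of CpG dinucleotides around the start of transcription. Windows of 300 bases, from 250 before to 50 after the RefSeq start on GRCm38.p6, were used for 6 of the 9 genes (Cxcl14, Cxcl12, Cx3cl1, Ccl20, Il33 and Il1a). Capitals mark each CG and each TATAAA, the letters of a TATA box, on the strand of the gene.
Cxcl14, chr13:56296502-56296801, minus strand: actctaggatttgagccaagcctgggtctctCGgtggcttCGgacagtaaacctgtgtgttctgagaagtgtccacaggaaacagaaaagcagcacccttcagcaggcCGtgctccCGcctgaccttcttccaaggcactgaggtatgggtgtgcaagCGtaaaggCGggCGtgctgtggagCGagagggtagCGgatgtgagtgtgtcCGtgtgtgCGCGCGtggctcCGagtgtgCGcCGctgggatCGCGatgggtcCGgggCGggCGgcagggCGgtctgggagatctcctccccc
Cx3cl1, chr8:94771930-94772229, plus strand: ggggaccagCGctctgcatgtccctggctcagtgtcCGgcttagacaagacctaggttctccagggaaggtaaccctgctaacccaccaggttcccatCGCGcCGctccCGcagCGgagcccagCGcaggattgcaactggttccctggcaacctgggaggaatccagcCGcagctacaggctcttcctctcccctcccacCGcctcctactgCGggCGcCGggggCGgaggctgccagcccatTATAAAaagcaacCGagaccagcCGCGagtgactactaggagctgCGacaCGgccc
Ccl20, chr1:83116516-83116815, plus strand: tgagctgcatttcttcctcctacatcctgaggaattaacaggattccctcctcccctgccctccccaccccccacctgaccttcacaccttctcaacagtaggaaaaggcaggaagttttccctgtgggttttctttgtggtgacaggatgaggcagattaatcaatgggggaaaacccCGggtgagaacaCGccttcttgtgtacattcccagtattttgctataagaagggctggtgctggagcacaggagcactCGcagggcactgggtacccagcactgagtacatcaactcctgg
Il1a, chr2:129309923-129310222, minus strand: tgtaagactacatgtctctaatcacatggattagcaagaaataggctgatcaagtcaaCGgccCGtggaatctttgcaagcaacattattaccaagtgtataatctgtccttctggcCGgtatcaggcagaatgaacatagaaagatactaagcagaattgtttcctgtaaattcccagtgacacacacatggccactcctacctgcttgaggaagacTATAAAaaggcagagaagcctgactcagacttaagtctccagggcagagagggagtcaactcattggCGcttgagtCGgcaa

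The windows of Cxcl14, Cxcl12 and Cx3cl1 held 22, 20 and 19 CpG dinucleotides. Those of Ccl20 and Il1a held 3 and 5, and the first and second start of Il33 had 6 and 5. Over 32851 windows of the same length the median was 7, with quartiles of 3 and 20. So Cxcl14, Cxcl12 and Cx3cl1 had windows near or above the upper quartile, and Il33, Il1a and Ccl20, all under 10 TPM, lay below the median. Among all chemokine ligand genes, 27 had a window. The 7 with a mean of at least 1 TPM had a median of 12 CpG dinucleotides (4 to 22), and the 20 under 1 TPM had a median of 3 (2 to 52). For a gene with several starts the window with the most CpG dinucleotides was taken. Cxcl16, Ccl2 and Ccl7, also at 1 TPM or more, had no window. The same split was not made over all genes, so the difference cannot be read as a trait of chemokines. The ranges overlap: Ccl27a, the ligand with the second highest level (86.9 ± 19.3 TPM), held 12 CpG dinucleotides, and Ccl25 held 52 CpG dinucleotides at 0.598 ± 0.746 TPM (SD, n = 3). Ccl25 had 117, 13 and 24 counts in replicates 1 to 3, so its mean rests mostly on replicate 1.

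Short motifs were searched on both strands. TATAAA was found in the windows of Cx3cl1 (6 bases before the start), Il1a (32 before) and both starts of Il33 (203 and 29 before), against 13.6% of all windows. For Cx3cl1 the RefSeq start lies after the start of the gene in the GENCODE annotation (94772009). Its TATAAA thus lies inside the gene as annotated there. TGANTCA, the core of an AP-1 site, was found only in the window of Il1a, 12 bases before the start, against 7.81% of all windows. GGNNTTTCC, part of an NF-kappaB site, was found only in that of Ccl20, on the opposite strand 80 bases before the start, against 5.82% of all windows. No matches to different motifs overlapped. A match is a description of letters and not a site shown to be bound.

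Cxcl14 encodes a chemokine that many epithelia make at rest and whose receptor is not settled. It was the highest of the 9 genes and lay at rank 33 of all entries by mean TPM. It had 2852, 4615 and 4410 TPM in replicates 1, 2 and 3, based on 56037, 115199 and 123992 counts, and averaged 3959 ± 964 TPM (SD, n = 3). Replicate 1 was the lowest, 1.62-fold under replicate 2, while replicates 2 and 3 were close. As a share of all counts Cxcl14 took 0.191% in replicate 1, with a 95% Wilson interval of 0.190 to 0.193. The share was 0.327% (0.325 to 0.329) in replicate 2 and 0.316% (0.315 to 0.318) in the third library. The gap between replicate 1 and the others thus exceeds counting error. The gene lies on GRCm38 chromosome 13 from 56288643 to 56296551 on the minus strand (ENSMUSG00000021508, protein coding), and no annotated gene overlaps it.

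Cxcl12 encodes the ligand of the receptor Cxcr4 and of the scavenging receptor Ackr3, and it guides stem cells and leukocytes. Its level was 68.8, 49.9 and 37.2 TPM in replicates 1 to 3, a mean of 52.0 ± 15.9 TPM (SD, n = 3). Unlike Cxcl14, it was highest in replicate 1 and lowest in replicate 3. The ratio of Cxcl14 to Cxcl12 in TPM was 41.5, 92.5 and 119 in the 3 libraries. The length of 8176 bases used by the authors is above that of the longest of its 4 annotated transcripts (5627 bases), so the TPM depends on which parts of the gene were read. Cxcl12 lies on chromosome 6 from 117168535 to 117181367, plus strand. The lengths of Cx3cl1 (3930 against 3315 bases), Il34 (1959 against 1796), Il33 (2886 against 2544), Ccl2 and Ccl20 were also above those of their longest transcripts.

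Cx3cl1 encodes fractalkine, a chemokine made on a membrane-bound stalk. It had 14.0, 27.0015 and 24.8 TPM in replicates 1 to 3, a mean of 21.9 ± 6.97 TPM (SD, n = 3), and replicate 1 was again the lowest. The gene (chromosome 8, 94772009 to 94782427, plus strand) lies between the chemokine genes Ccl22, 20310 bases before it, and Ccl17, 28026 bases after it. These neighbours were nearly silent: Ccl22 had 5, 7 and 28 counts and Ccl17 had 0 in all 3 libraries.

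Ccl2, which attracts monocytes through the receptor Ccr2, had 5.14, 7.25 and 2.62 TPM based on 63, 113 and 46 counts, and averaged 5.00 ± 2.32 TPM (SD, n = 3). Replicate 3 was the lowest. The exact Poisson intervals of its TPM were 1.92 to 3.50 in replicate 3 and 5.98 to 8.72 in replicate 2, so these libraries differed beyond counting error. Ccl2 (chromosome 11, 82035571 to 82037453, plus strand) is overlapped on the opposite strand by Gm17268, which had 0 counts. Its neighbour Ccl7, another attractant of monocytes 8259 bases further along, had 5.91, 1.91 and 3.97 TPM, highest in the replicate in which Ccl2 was in the middle.

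Ccl20, which attracts cells with the receptor Ccr6, was at the limit of detection. It had 8, 13 and 0 counts, or 0.522, 0.668 and 0 TPM, and the count of 0 in replicate 3 allows up to 0.137 TPM by the limit of 3 counts used for every count of 0. The exact Poisson interval in replicate 1 was 0.225 to 1.03 TPM and in replicate 2 it was 0.356 to 1.14 TPM, so replicates 1 and 2 were not distinguishable at this depth. The gene lies on chromosome 1 from 83116766 to 83119167, plus strand. Ccl8, the third of the follicle chemokines named above, had no count in any library, so up to 0.545 TPM could have gone undetected.

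**Figure D1:**
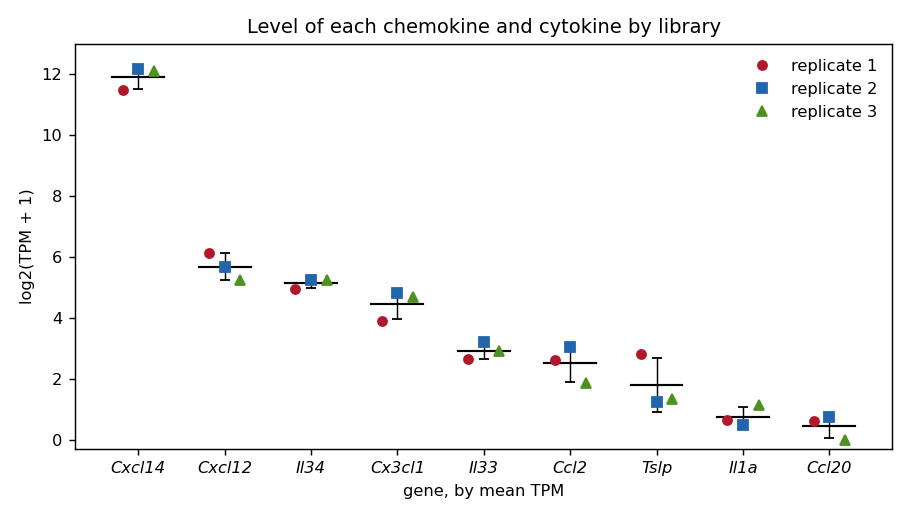
Level of each of the 9 genes on the log2(TPM + 1) scale, ordered by mean TPM, with 1 point per library, a bar at the mean and error bars of 1 SD (n = 3). Cxcl14 stands at about 12, all others below 7, and Il1a and Ccl20 are close to 0.

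Il34 encodes interleukin 34, a ligand of the receptor Csf1r that keratinocytes make. It had 29.8, 37.0 and 36.9 TPM in replicates 1 to 3, a mean of 34.6 ± 4.09 TPM (SD, n = 3). Replicate 1 was lowest, but the 3 values lay within 1.24-fold, the closest agreement among the 9 genes. Csf1, the other ligand of Csf1r, had 6.63 ± 1.03 TPM. Il34 (chromosome 8, 110741829 to 110805924, minus strand) is overlapped by the antisense genes Gm15894 and Gm15895, which had at most 15 counts in a library. The next gene, Mtss1l, ends 429 bases away on the opposite strand and had 13.4 ± 2.16 TPM. The strand setting of the counting is not given in the sources used here.

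Il33, a nuclear alarm cytokine, had 5.30, 8.22 and 6.58 TPM in replicates 1 to 3, a mean of 6.70 ± 1.46 TPM (SD, n = 3). It was lowest in replicate 1 and highest in replicate 2. It lies on chromosome 19 from 29925114 to 29960718, plus strand.

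Il1a, the alarm cytokine that keratinocytes can hold in store, rested on 12, 11 and 36 counts, or 0.564, 0.407 and 1.18 TPM. Replicate 3 was the highest, with an exact Poisson interval of 0.828 to 1.64 TPM against 0.203 to 0.728 in replicate 2. The transcript Gm14023 overlaps Il1a on the opposite strand and had 24, 42 and 6 counts, in the reverse order of libraries. Since strand is not stated, reads from the pair cannot be told apart, and the level of Il1a is uncertain. Il1b, its neighbour on chromosome 2 at a distance of 54598 bases, had 1, 2 and 0 counts.

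Tslp had 74, 21 and 27 counts, or 6.06, 1.35 and 1.55 TPM, a mean of 2.99 ± 2.66 TPM (SD, n = 3). Replicate 1 alone was high, and without it the mean was 1.45 TPM. The exact Poisson interval of replicate 1, 4.76 to 7.61 TPM, lay above those of replicates 2 (0.838 to 2.07) and 3 (1.02 to 2.25). The gene lies on chromosome 18 from 32815383 to 32819797, plus strand, and 4930455D15Rik, which overlaps it on the opposite strand, had 0 counts.

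The order of mean levels was Cxcl14, Cxcl12, Il34, Cx3cl1, Il33, Ccl2, Tslp, Il1a and Ccl20. Of the 8 pairs of neighbours, which were set by these same means, 6 kept this order in all 3 libraries. With 3 libraries the two-sided exact sign-flip permutation test cannot go below p = 0.25, which these 6 pairs reached (Benjamini-Hochberg adjusted over 8 pairs, 0.333). Cxcl14 exceeded Cxcl12 by 6.24 ± 0.78 on the log2(TPM + 1) scale, Il34 exceeded Cx3cl1 by 0.68 ± 0.32, Cx3cl1 exceeded Il33 by 1.54 ± 0.26 and Tslp exceeded Il1a by 1.05 ± 1.01 (mean ± SD of the within-library difference, n = 3). Without replicate 1, which held most of the counts of Tslp, its difference from Il1a was 0.48 and Ccl2 exceeded Tslp by 1.16. For the other neighbours the mean difference was below its SD. Cxcl12 over Il34 and Il33 over Ccl2 still kept their order in all 3 libraries. Cxcl12 over Il34 was 0.54 ± 0.59, Il33 over Ccl2 was 0.42 ± 0.56, Ccl2 over Tslp was 0.71 ± 1.02 and Il1a over Ccl20 was 0.31 ± 0.72. Without replicate 3, Il1a over Ccl20 reversed to -0.10 and Il33 over Ccl2 was 0.0999. Cxcl12 over Il34 was 0.217 without replicate 1. Without division by gene length, Cx3cl1 lay above Il34, with a difference of -0.29 for Il34 over Cx3cl1. Tslp over Il1a was then 0.47, an order no longer shared by all 3 libraries.

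A mean of at least 1 TPM was reached by 7 of the 9 genes, and by 30.6% of all entries. The libraries did not depart from each gene's mean in a common direction. Cxcl14, Cx3cl1, Il34 and Il33 were lowest in replicate 1, Cxcl12 and Tslp were highest there, Ccl2 and Ccl20 were lowest in replicate 3, and Il1a was highest in replicate 3. Of the 7 genes at 1 TPM or more, 4 were lowest and 2 highest in replicate 1, where 25.04% of the 13664 entries at that level were lowest and 59.6% highest (35.3% and 47.9% with TMM scaling). Highest in replicate 2 were 5 of the 7 genes, against 20.0% of those entries. The SD over libraries on the log2(TPM + 1) scale was 0.38 for Cxcl14, where the median of 134 entries from 1000 TPM upward was 0.16. It was 0.43 for Cxcl12, 0.49 for Cx3cl1 and 0.17 for Il34, where the median of 6940 entries from 10 to 100 TPM was 0.23. It was 0.88 for Tslp, 0.60 for Ccl2 and 0.27 for Il33, where the median of 5505 entries from 1 to 10 TPM was 0.42.

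Other gene groups also differed between the libraries. The 10 dissociation response genes, such as Fos and Jun, summed to 25038, 16160 and 11530 TPM in replicates 1 to 3, and 9 of 10 were highest in replicate 1. The 5 basal keratinocyte genes summed to 19693, 28990 and 25677 TPM, and 5 of 5 were lowest in replicate 1. The 7 suprabasal genes summed to 3316, 4477 and 7185 TPM, and 6 of 7 were highest in replicate 3. Their part in the differences of the chemokines and cytokines was not tested. In RNA from many cells, fewer cells of a type and less RNA per cell cannot be told apart.

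**Figure D2:**
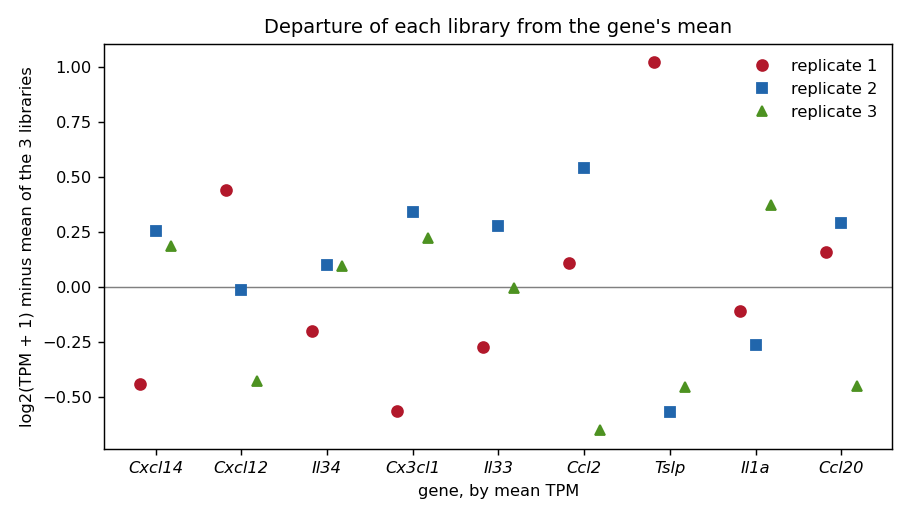
Departure of each library from the mean of the 3 libraries on the log2(TPM + 1) scale, for the 9 genes in order of mean TPM, with 1 point per library. Replicate 1 lies lowest for Cxcl14, Il34, Cx3cl1 and Il33 and highest for Cxcl12 and Tslp, where its departure reaches 1.02.

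The chemokine ligand family was read as a whole, with 38 genes. A mean of at least 1 TPM was reached by 10 of them, and 16 had 0 counts in all 3 libraries. Cxcl14 took 91.4%, 95.5% and 95.7% of the summed TPM of all ligands, a sum of 3120, 4832 and 4606 TPM. Without Cxcl14 the sum was 268, 217 and 196 TPM. Of this remainder Ccl27a took 38.0% ± 2.45, Cxcl12 22.5% ± 3.36, Cxcl16 20.7% ± 1.84 and Cx3cl1 10.1% ± 4.23 (SD, n = 3). Ccl27a, which attracts skin-homing T cells through Ccr10, had 86.9 ± 19.3 TPM, a value that is uncertain because the mouse genome holds close copies of it. Cxcl16, the membrane-bound ligand of Cxcr6, had 46.6 ± 3.64 TPM. The next ligands outside the 9 genes were Ccl7 with 3.93 ± 2.00 TPM, Cxcl1, which attracts neutrophils, with 3.84 ± 2.55 TPM, and the interferon-induced Cxcl10 and Cxcl9 with 2.74 ± 0.492 and 1.43 ± 0.197 TPM.

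**Figure D3:**
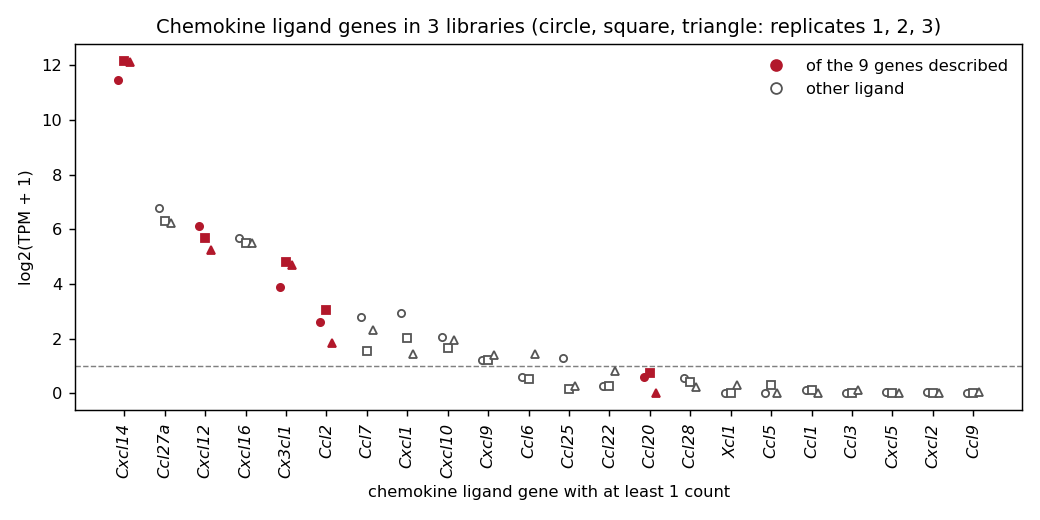
Level of the 22 chemokine ligand genes with at least 1 count, on the log2(TPM + 1) scale, with 1 point per library and a dashed line at 1 TPM. Cxcl14 lies far above all others, followed by Ccl27a, Cxcl12 and Cxcl16, and Ccl20 lies under the line in all 3 libraries.

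Receptors for the 9 products were present for some and near 0 for others. Of 14 receptor genes, 7 had a mean of at least 1 TPM. For the chemokines, Cxcr4 and Ackr3, the receptors of Cxcl12, had 11.7 ± 6.80 and 18.3 ± 8.40 TPM (SD, n = 3). Cxcr4 had 18.6, 11.6 and 5.02 TPM in replicates 1 to 3 and Ackr3 had 14.4, 12.7 and 28.0 TPM. Replicate 3 was thus the lowest for Cxcr4 and the highest for Ackr3. Ccr2 and Ccr6, the receptors of Ccl2 and Ccl20, had no count in any library, and a count of 0 allows up to 0.0412 and 0.137 TPM. Cx3cr1, the receptor of Cx3cl1, had 2, 0 and 0 counts. Among the other chemokine receptors, the scavenger Ackr4 stood out with 148, 156 and 165 TPM, while Cxcr5 had 2.12 ± 0.122 TPM and Ccr4 1.41 ± 0.209 TPM.

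For the cytokines, Sdc1, a cell-surface proteoglycan that can bind interleukin 34, had 659, 1091 and 1015 TPM. Csf1r had 2, 11 and 0 counts, and Ptprz1, another receptor of interleukin 34, had 0.163 ± 0.0565 TPM (SD, n = 3). Il1r1, the signalling receptor of Il1a, had 9.46 ± 4.88 TPM, its decoy Il1r2 6.48 ± 2.91 TPM and the shared coreceptor Il1rap 2.69 ± 0.473 TPM. Il1rl1, the receptor of Il33, had 1, 0 and 0 counts. Crlf2, the specific chain of the Tslp receptor, had 10.4, 10.8 and 12.9 TPM, while Il7r, its partner chain, had 1, 3 and 9 counts.

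Other members of the interleukin 1 family were measured beside Il1a and Il33, and 6 of the 10 ligand genes had a mean of at least 1 TPM. Il18 had 10.8 ± 6.62 TPM, the interleukin 36 antagonist Il36rn 8.43 ± 5.08 TPM, Il36g 5.53 ± 2.10 TPM, the interleukin 1 receptor antagonist Il1rn 5.04 ± 1.95 TPM and Il1f10 1.70 ± 0.356 TPM (SD, n = 3). Of the 10 ligand genes, 6 were highest in replicate 3, among them Il18, Il36rn, Il36g, Il1rn and Il1a. The other 4, among them Il33 and Il1f10, were highest in replicate 2. Casp1, the protease that matures Il18 and Il1b, had 27.9 ± 9.87 TPM, and Il1rl2, the receptor of the interleukin 36 proteins, had 13.3 ± 2.24 TPM. Of 16 other epithelial cytokine genes, 4 had a mean of at least 1 TPM: Tgfb1 with 16.5 ± 3.20, Kitl with 10.9 ± 2.80, Csf1, and Il15 with 1.75 ± 0.490 TPM.

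The authors' deposited table also held a fold change per gene, read from the column names as these libraries against bulge libraries, which were not analysed here. Positive values mean higher in the cells studied here, since 2555 of 2555 genes with 0 counts in all 3 libraries had a negative one. All 9 genes had an adjusted p-value there, and 3 were called higher and 1 lower at the threshold of 0.05, where 23.6% of 20274 tested entries were called higher and 32.0% lower. A count of 3 of 9 is near that background. The median log2 fold change in the authors' deposited table was -0.05 over the 9 genes, -0.36 over all tested entries and 0.25 over those with a mean of at least 1 TPM.

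The genes called higher were among those with the highest levels. In the authors' deposited table the log2 fold change of Cxcl14 was 2.82 (adjusted p-value 5.56e-22), and 96.0% of the tested entries had a lower fold change. The authors' deposited table gave Il34 2.04 (adjusted p-value 2.57e-05) and Cx3cl1 1.67 (1.79e-05). Tslp was called lower in the authors' deposited table, at -3.21 on the log2 scale (adjusted p-value 6.74e-08). Most of its counts in the libraries studied here came from replicate 1. The authors' deposited table gave no call for Cxcl12 (log2 fold change 0.47, adjusted p-value 0.0851), Ccl2 (-1.06, 0.0890), Il1a (-1.03, 0.301), Il33 (-0.11, 0.825) and Ccl20 (-0.05, 0.977), and the deposited columns give no error for these values.

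**Figure D4:**
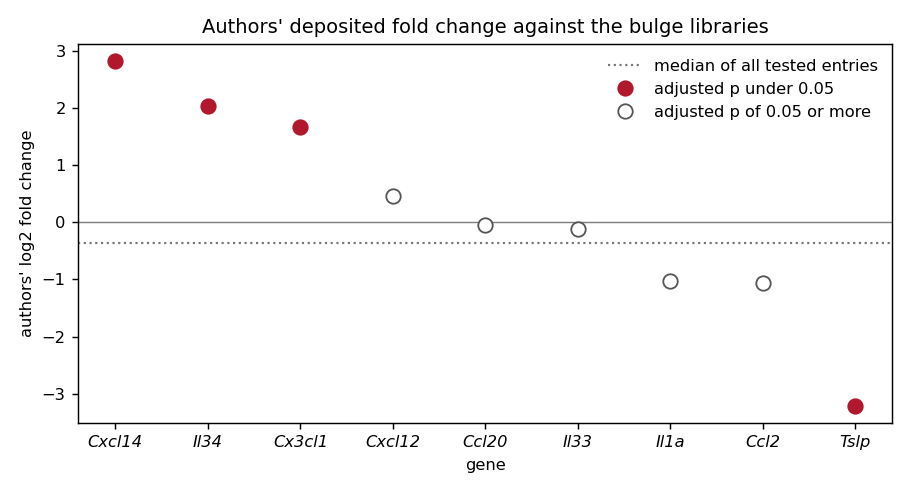
The authors' deposited log2 fold change of the 9 genes against the bulge libraries, with filled points for an adjusted p-value under 0.05 and a dotted line at the median of all tested entries, -0.36. Cxcl14, Il34 and Cx3cl1 lie above 1.5 and Tslp lies below -3.

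Of the 10 receptor genes with an adjusted p-value in the authors' deposited table, 2 were called higher and 3 lower, which is near the 23.6% and 32.0% of all tested entries. Crlf2 had a log2 fold change of 4.32 (adjusted p-value 5.70e-08), opposite in sign to its ligand Tslp, and Sdc1 had 2.37 (4.56e-15), the same sign as Il34, in the authors' deposited table. Il1r1 was lower by the authors' deposited table, with -0.76 (0.0178), as were Ptprz1 with -1.91 (0.00257) and Cx3cr1 with -3.30 (0.0193). Among 20 chemokine ligands with an adjusted p-value, 3 were called higher and 6 lower, also near those shares. Outside the 9 genes, Ccl27a was called higher with 1.41 (8.36e-06) in the authors' deposited table. Called lower there were Cxcl9 with -3.24 (1.14e-06), Cxcl10 with -2.07 (0.00105), Ccl25 with -4.02 (1.29e-10), Ccl28 with -2.69 (2.77e-05), Ccl19 with -4.62 (0.00128) and Cxcl17 with -5.43 (5.55e-05).

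Of 10 NF-kappaB factors and response genes, 6 were called higher and 1 lower by the authors' deposited table, beside 23.6% and 32.0% of all tested entries. Nfkbia, the inhibitor that NF-kappaB induces, had 574 ± 324 TPM (SD, n = 3) and a log2 fold change of 2.07 (4.42e-10) in the authors' deposited table. Rela had 2.19 (3.24e-14) and Nfkb2 2.32 (2.17e-13), while Nfkbiz had -1.71 (1.31e-07), in the authors' deposited table. A link of NF-kappaB to the levels or calls of the chemokines and cytokines was not tested. Marker genes were called in this comparison as well. In the authors' deposited table, 7 of 7 suprabasal, 5 of 6 upper follicle and 7 of 10 dissociation response genes were called higher, beside 23.6% of all tested entries. Of the 7 hair follicle stem cell genes the authors' deposited table called 3 higher and 3 lower. Their part in the calls of the chemokines and cytokines was not tested.

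The table gives each gene a number headed H3K27me3, a histone mark of repressed genes, whose unit and source cells were not stated. In the authors' deposited table all 9 genes had a value of 0, where 8.06% of all entries and 3.29% of those with a mean of at least 1 TPM had one above 0. With 9 genes a count of 0 is near that background. Some close neighbours and relatives did carry a value. Neurog1, a gene of neuronal fate 36480 bases from Cxcl14, had 51453 in the authors' deposited table and 0 counts in all 3 libraries. Of the 38 chemokine ligands, the authors' deposited table gave 5 a nonzero value: Cxcl10 with 3350, Cxcl3 with 3938, Cxcl5 with 7245, Cxcl2 with 9076 and Ccl11, a chemokine that attracts eosinophils, with 10948. Of these 5, only Cxcl10 had a mean of at least 1 TPM. Il18, a relative of Il1a and Il33, had 4365 in the authors' deposited table and 10.8 ± 6.62 TPM (SD, n = 3). The authors' deposited table also gave a value to Asic2, next to Ccl2 (5391), and to Gypc, next to Tslp (2928).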

How the data were processed

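RNA was measured in 3 libraries of 1 group. For each gene the authors deposited raw read counts and TPM (counts divided by gene length and brought to an equal sum in each library), per the file headers. Recomputing TPM from the counts and lengths gave a largest deviation of 4.72e-06. The authors also deposited a log2 fold change per gene, its adjusted p-value and an H3K27me3 score with no stated unit, per the file headers. The submitters' processing notes name FastQC, SAMtools, TopHat2, DESeq, DESeq2 and the builds mm10 and GRCm38, with no role for any of them. The counting tool, annotation and strand setting are not given in the sources used here. Another 6 columns of per-sample values match no sample and were not used.

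Values were computed with Python 3.11.15, pandas 2.3.3 and scipy 1.17.1. Differences use log2(TPM + 1), a pseudocount that makes differences between low genes appear smaller. Positions come from GENCODE M21 (GRCm38) by identifier, and promoter windows from RefSeq (GRCm38.p6). For symbols with several entries the one with the highest mean TPM was kept. Older symbols were matched through RefSeq synonyms. TMM factors from edgeR 4.0.16 served only as an alternative scaling. The functions were tested on simulated data. A count of 0 allows up to 3 counts, and intervals (95%) cover counting error only, since no molecular identifiers are stated. Depth was 29283936, 35264901 and 39198620 counts.

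The 9 genes and all lists were chosen with earlier results of these data known, so their counts are descriptions. Named beside the 9 genes were the up to 5 highest other genes of each list by mean TPM, the receptors and the nearest coding neighbours. Genes named for an H3K27me3 value or a call in the authors' table, and Ccl8, Ccl25 and Il1b, were added after their values were seen. Alternatives covered the scaling, the pseudocount, gene length, the detection limit, the thresholds and each left-out replicate.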

Additional observations from a re-analysis of the deposited data

How the results depend on the processing

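Of 106 values recomputed under the alternatives, 100 kept their direction and their side of the limit used, moved by less than the spread, or were counts that changed little. This tally does not measure robustness, because many values could not change. With 3 libraries, leaving out a library or taking the median always moves a mean by less than its SD. A pair ordered alike in all 3 libraries keeps its order when a library is left out. A count of 0 genes with H3K27me3 stays 0 at a higher limit. Without division by gene length, Il34 fell below Cx3cl1, with a difference of -0.29 on the log2 scale, and Tslp over Il1a was 0.47, an order no longer shared by all 3 libraries. Without replicate 1, Ccl2 lay above Tslp in both remaining libraries. Over the left-out replicates the difference of Ccl2 over Tslp ran from 0.15 to 1.16, and that of Il1a over Ccl20 from -0.10 (without replicate 3) to 0.58. Cxcl12 over Il34 fell from 0.54 to 0.217 without replicate 1, and Il33 over Ccl2 from 0.42 to 0.0999 without replicate 3. With limits of 0.5, 5 and 10 TPM, 8, 6 and 4 of the 9 genes counted as detected instead of 7. The mean of Tslp was 1.45 TPM without replicate 1, and that of Ccl20 ran from 0.261 TPM without replicate 2 to 0.595 TPM without replicate 3. TMM scaling moved replicate 1 by -0.11 on the log2 scale and left the highest and lowest library of all 9 genes in place, while the share of entries at 1 TPM or more that were highest in replicate 1 went from 59.6% to 47.9%. Depth limits Ccl20 and Il1a, which rested on at most 36 counts in a library. No paired analysis was possible because all libraries belong to 1 group.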
